A study of Homo sapiens with 12 samples.

Results

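Interferon-stimulated genes are the genes that cells switch on after an interferon has bound its receptor. A set of 43 of them, taken from a list of names, was followed in 2 human cell lines treated with ITF2357, and 42 of the 43 had an array row that carries their symbol alone, among 18417 such genes in the whole series. The remaining listed gene, GBP1, was measured in a row that it shares with other genes. ITF2357, also called givinostat, blocks histone deacetylases, which take acetyl groups off histones and other proteins. The groups were HEL cells with 250 nM ITF2357 for 6 h, HEL cells left untreated for 6 h, UKE1 cells with 250 nM ITF2357 for 6 h and UKE1 cells left untreated for 6 h, with 3 Affymetrix Gene 1.0 ST arrays in each of the 4 groups and 12 arrays in all. Both lines are labelled as erythroleukemia lines bearing JAK2V617F, an activating change in the kinase JAK2, so treated and untreated groups share it. No line without the mutation and no interferon-treated group was analysed here. UKE1 medium also contained horse serum, hydrocortisone and HEPES, which HEL medium did not. The series text calls the 3 samples of a group independent, with no further detail, so each p-value measures only how far these samples spread, which may be technical. In bulk samples such as these, fewer cells of a type and less RNA per cell cannot be told apart.

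As background, type I interferons bind the IFNAR1 and IFNAR2 receptor, whose kinases JAK1 and TYK2 phosphorylate transcription factors of the STAT family. These join IRF9 into a complex that binds the interferon-stimulated response element (ISRE) in promoters, whereas interferon gamma acts through JAK1 and JAK2 on STAT dimers that bind the gamma-activated sequence (GAS). The products sense foreign nucleic acids, degrade or block viral RNA, attach the ubiquitin-like protein ISG15 to other proteins, and damp the response again. Without added interferon, blood cells keep a basal level of many of these genes.

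The promoters of 8 genes are shown first, because the ISRE core is found both in members that fell in UKE1 and in members that did not. The first 6 are the ISRE-bearing members with the smallest adjusted p in UKE1, so the core they share comes from this choice. HERC6, IRF9 and XAF1 fell in UKE1 with a smaller adjusted p than IFIT1, and their windows hold no ISRE core. IFI6, which rose in both lines, and IRF1, which rose and holds a GAS core without an ISRE core, are set beside the first 6. IRF9, OAS1 and IFI35 likewise hold a GAS core without an ISRE core, and all were called lower in UKE1. Sequences are from RefSeq (GRCh38.p14), read 5′ to 3′ on the strand of the gene. They run to 10 bases after the annotated start, from 200 bases before it. For DTX3L and PARP9 they run from 10 bases inside the neighbouring gene on the other strand. Capitals mark each match to the ISRE core GAAANNGAAA or, in IRF1, to the GAS core TTCNNNGAA, on either strand.
DTX3L: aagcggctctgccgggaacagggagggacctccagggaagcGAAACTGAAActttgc
PARP9: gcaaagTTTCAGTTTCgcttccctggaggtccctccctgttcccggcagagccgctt
RSAD2: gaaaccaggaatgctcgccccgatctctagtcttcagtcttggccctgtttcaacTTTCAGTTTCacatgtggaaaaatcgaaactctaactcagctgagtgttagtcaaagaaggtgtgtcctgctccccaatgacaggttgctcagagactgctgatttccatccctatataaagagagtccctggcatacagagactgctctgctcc
IFI44L: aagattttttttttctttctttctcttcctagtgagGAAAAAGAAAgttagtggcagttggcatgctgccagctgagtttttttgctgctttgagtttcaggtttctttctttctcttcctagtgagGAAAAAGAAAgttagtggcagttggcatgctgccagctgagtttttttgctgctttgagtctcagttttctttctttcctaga
IFIT3: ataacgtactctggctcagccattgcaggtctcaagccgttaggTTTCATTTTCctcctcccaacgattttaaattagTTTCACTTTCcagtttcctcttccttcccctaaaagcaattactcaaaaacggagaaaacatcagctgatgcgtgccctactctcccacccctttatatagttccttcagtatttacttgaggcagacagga
IFIT1: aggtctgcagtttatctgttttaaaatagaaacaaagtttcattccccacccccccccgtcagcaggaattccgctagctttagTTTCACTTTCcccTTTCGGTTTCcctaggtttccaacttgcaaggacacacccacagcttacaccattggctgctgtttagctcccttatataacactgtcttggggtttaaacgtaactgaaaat
IFI6: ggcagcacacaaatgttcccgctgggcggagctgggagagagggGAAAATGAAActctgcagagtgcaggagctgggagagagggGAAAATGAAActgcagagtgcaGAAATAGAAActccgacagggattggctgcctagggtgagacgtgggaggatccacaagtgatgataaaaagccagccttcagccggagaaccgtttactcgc
IRF1: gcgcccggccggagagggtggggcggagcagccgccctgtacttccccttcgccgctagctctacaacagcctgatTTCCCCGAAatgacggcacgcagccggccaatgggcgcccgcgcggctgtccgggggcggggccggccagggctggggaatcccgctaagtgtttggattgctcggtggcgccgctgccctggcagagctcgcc
The DTX3L and PARP9 stretch is the same 57 bases, chr3:122564291-122564347, read on the plus strand for DTX3L and on the minus strand for PARP9. A single ISRE core at bases 122564332 to 122564341 of chromosome 3 therefore lies in both windows. It spans the DTX3L start (bases -6 to 4) and lies upstream of the PARP9 start (bases -41 to -32). The other windows are chr2:6877577-6877786 (plus strand) for RSAD2, chr1:78620248-78620457 (plus) for IFI44L, chr10:89327797-89328006 (plus) for IFIT3, chr10:89392423-89392632 (plus) for IFIT1, chr1:27672183-27672392 (minus) for IFI6 and chr5:132490764-132490973 (minus) for IRF1. IFI44L carries the same core GAAAAAGAAA at 2 places. The windows shown for IFIT1 and IFIT3 each hold 2 cores, and the core TTTCACTTTC, counted on the gene's strand, is present in both. IFI6 holds 3 cores. RSAD2, PARP9 and IFIT3 each have 2 windows in the table. For RSAD2 and PARP9 the window with the match is shown, and for IFIT3 the upstream one. The second IFIT3 window, chr10:89332279-89332578, holds 2 further ISRE cores.

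Windows of 300 bases (250 before to 50 after the start) were found for 36 of the 43 members, 9 of which have several. The ISRE core occurred in at least 1 window of 25 of these 36 members (69.4%), against 587 of the 14239 genes tested on the arrays that have a window (4.12%) and 1195 of all 27305 genes in the table (4.38%). For the GAS core the counts were 12 of 36 members (33.3%), 1310 of 14239 genes tested (9.20%) and 2560 of all 27305 genes (9.38%). In 5 members the ISRE core overlapped a GAS core. The members are known interferon targets, so these shares describe the list, and a match of letters is not evidence of a bound site. IRF7, IFIT2, OAS2, OASL, MX2, GBP2 and USP18 are named without a sequence.

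Both lines were checked against marker genes. Over all 33297 array rows, Pearson correlations were 0.994 to 0.996 within a group, 0.981 to 0.985 between the treatments of a line, and 0.928 to 0.943 between the lines. Untreated UKE1 was lower than untreated HEL for 6 of 6 measured erythroid markers (9 listed), among them embryonic haemoglobin HBE1 at 5.19 ± 0.10 in UKE1 against 12.95 ± 0.040 in HEL (mean log2 level, SD, n = 3 each). In untreated UKE1 HBE1, ALAS2 (5.96) and EPOR (6.29) lay below every array median (6.41 to 6.50 over all rows), and GATA1 (7.46), HBZ (6.95) and KLF1 (6.84) lay above. UKE1 was also lower for 5 of 5 megakaryocyte markers. Over all genes, 33.3% were higher and 34.4% lower in untreated UKE1 than in untreated HEL. The other marker lists were mixed. Of 4 myeloid markers 3 were higher in UKE1, CSF1R most (10.21 ± 0.035 against 5.76 ± 0.081), and CD14 was not called (-0.09). Of 3 T-cell markers CD3D (9.15 ± 0.045 against 4.30 ± 0.19) and CD3E were higher in UKE1 and CD2 was lower (-0.81). Of 3 markers of plasmacytoid dendritic cells, which secrete interferon, IL3RA was higher in untreated UKE1 (7.80 ± 0.046 against 4.17 ± 0.050), and CLEC4C (4.88 ± 0.31 against 4.67 ± 0.20) and TCF4 (8.25 ± 0.11 against 8.44 ± 0.14) were not called. TCF4 rose with ITF2357 by 0.57 in HEL and 0.21 in UKE1. Of 29 measured lineage markers (35 listed), 2 were called higher and 8 lower with ITF2357 in HEL, and 3 higher and 11 lower in UKE1. The shares over all genes were 22.6% higher and 19.9% lower in HEL, and 22% and 22.3% in UKE1. In HEL the array means of the markers lay at 6.98 to 7.03 with ITF2357 and 7.11 to 7.16 without. In UKE1 they lay at 6.84 to 6.88 with ITF2357 and 7.00 to 7.08 without. Their part in the results below was not tested.

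In HEL cells ITF2357 moved interferon-stimulated genes in both directions, whereas in UKE1 cells most of those that moved fell. In HEL 13 of 42 members rose, 15 fell and 14 were not called, where called means an adjusted p under 0.05 in limma over all 18417 genes. Of all genes tested, 22.6% rose and 19.9% fell in HEL. In UKE1 6 members rose, 26 fell and 10 were not called, against 22% of all genes that rose and 22.3% that fell. The median log2 change of the members was -0.03 in HEL and -0.45 in UKE1, beside -0.01 and 0.01 over all genes. Changes of at least 2-fold past the threshold were seen in HEL for 4 members that rose (BST2, GBP2, IFI6 and IFI30) and 2 that fell (RSAD2 and DTX3L). In UKE1 the 2-fold changes were 1 rise (IFI30) and 8 falls (IFI44L, RSAD2, IFIT3, DTX3L, XAF1, HERC6, PARP9 and DDX60). The treated arrays did not overlap the untreated ones for 27 of 42 members in HEL and 36 of 42 in UKE1, where the shares over all genes were 49% and 53.9%.

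Averaged over the 42 members, the log2 level was 7.47 to 7.49 on the HEL arrays with ITF2357 and 7.40 to 7.53 on the untreated ones, which overlapped. In UKE1 it was 6.95 to 7.00 with ITF2357 and 7.35 to 7.45 untreated, without overlap. By line, 6 members rose in both (IRF1, HERC5, IFI6, BST2, SAMD9L and IFI30), 14 fell in both, and 4 rose in HEL and fell in UKE1 (RIGI, IFIT1, IFITM1 and PARP14). No member fell in HEL and rose in UKE1. A further 8 fell in UKE1 without a call in HEL, 3 rose and 1 fell in HEL without a call in UKE1, and 6 were called in neither line (IRF7, IFIT2, ISG15, ISG20, IFI27 and EPSTI1). These joint classes were not counted over all genes. Taken singly, 22.6% of all genes rose and 19.9% fell in HEL, and 22% rose and 22.3% fell in UKE1. The plot of drug responses by role shows these groups of members.

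**Figure D1:**
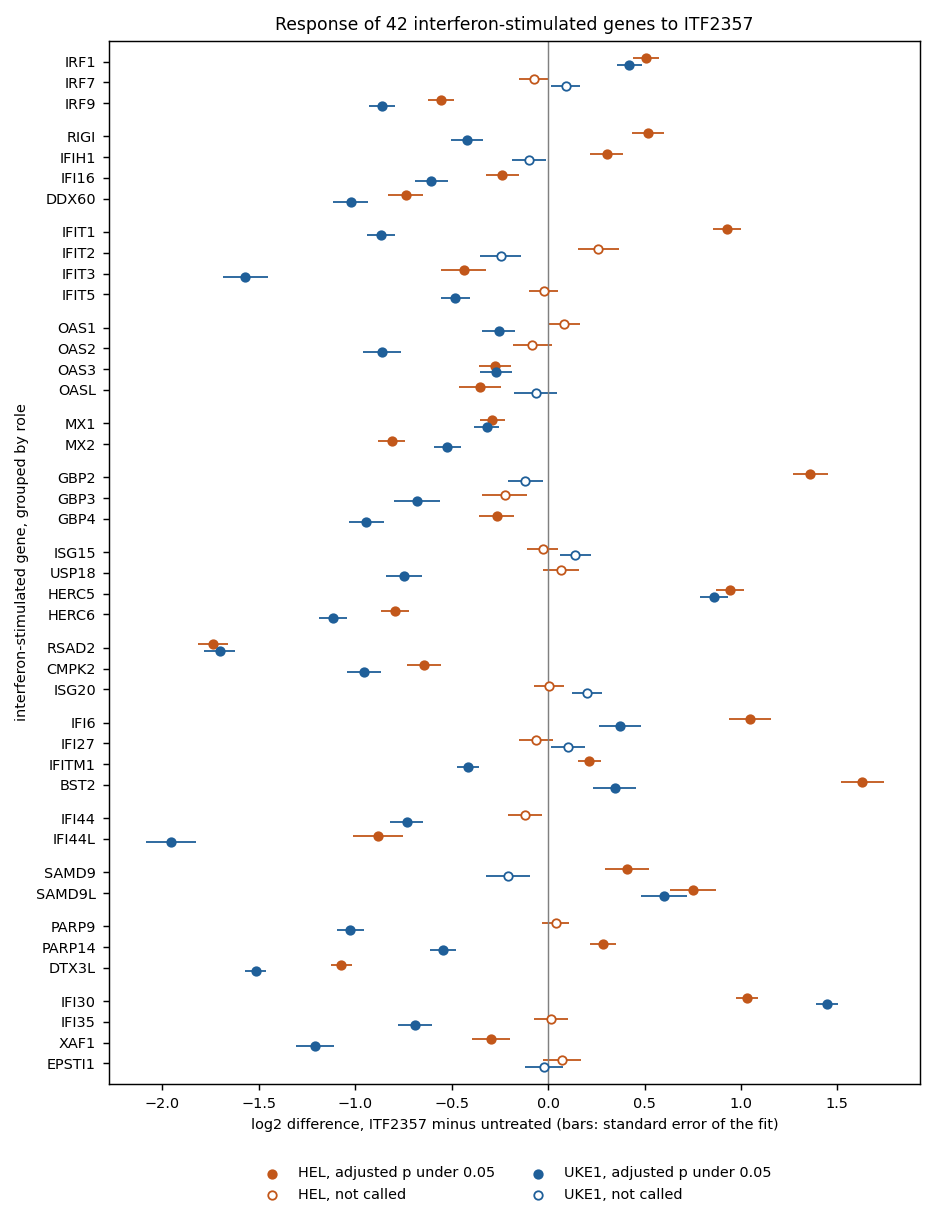
Log2 difference between ITF2357 and untreated arrays (x axis) for 42 interferon-stimulated genes ordered by role (y axis), in HEL (orange) and UKE1 (blue). Points are the fitted differences from 3 arrays a group, bars are standard errors, and filled points have an adjusted p under 0.05. Orange points lie on both sides of 0, and 26 of the 42 blue points are filled and left of 0.

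Among the interferon regulatory factors, which read the interferon signal at DNA, IRF9 fell and IRF1 rose in both lines. IRF9, the DNA-binding subunit of the ISRE-binding complex, had log2 levels of 7.32, 7.29 and 7.41 in HEL with ITF2357, against 8.02, 7.90 and 7.77 in untreated HEL. In UKE1 it had 7.34, 7.32 and 7.32 with ITF2357, against 8.17, 8.19 and 8.20 untreated. The treated arrays lay below the untreated ones in both lines, and all 6 treated arrays were close to each other. The changes were -0.55 ± 0.067 in HEL (log2 difference ± SE; 1.47-fold lower, adjusted p = 1.19e-05) and -0.86 ± 0.067 in UKE1 (1.82-fold lower, adjusted p = 1.8e-07). IRF1, an activator of ISRE-bearing genes that interferon gamma induces and whose promoter holds the GAS core printed above, rose by 0.51 ± 0.066 in HEL (1.42-fold, adjusted p = 2.14e-05) and by 0.42 ± 0.066 in UKE1 (1.34-fold, adjusted p = 0.000115). IRF7, which amplifies interferon alpha production, was not called, with changes of -0.07 ± 0.075 in HEL and 0.09 ± 0.075 in UKE1.

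Of the 4 nucleic acid sensors, 2 rose and 2 fell in HEL, and 0 rose and 3 fell in UKE1. Among all genes 22.6% rose and 19.9% fell in HEL, and 22% rose and 22.3% fell in UKE1. RIGI, which detects viral RNA with free 5′ triphosphates, had 8.38, 8.48 and 8.44 in HEL with ITF2357, against 7.97, 8.02 and 7.77 in untreated HEL. In UKE1 its levels were 6.52, 6.65 and 6.83 with ITF2357, against 7.06, 7.10 and 7.10 untreated. All treated arrays were above the untreated ones in HEL and below them in UKE1. RIGI rose by 0.52 ± 0.083 in HEL (1.43-fold, adjusted p = 0.000148) and fell by 0.42 in UKE1 (SE 0.083, 1.34-fold lower, adjusted p = 0.000796). The related sensor of long double-stranded RNA, IFIH1 (MDA5), rose by 0.30 ± 0.088 in HEL (adjusted p = 0.0119), a call that ended without untreated HEL replicate 3 (adjusted p = 0.0613), and was not called in UKE1 (-0.10 ± 0.088). IFI16, a nuclear DNA sensor, had a change of -0.24 ± 0.084 in HEL (adjusted p = 0.0358) and fell by 0.60 in UKE1 (SE 0.084, adjusted p = 3.86e-05). Leaving out untreated HEL replicate 1 or 2 or treated HEL replicate 1 or 3 ended the HEL call (adjusted p 0.0539 to 0.152), as did median centring (0.0608) and a fit to the HEL arrays alone (0.0765). DDX60, a helicase reported to act with RIGI, fell in both lines, by 0.74 in HEL (1.67-fold, adjusted p = 1.45e-05) and by 1.02 in UKE1 (2.03-fold, adjusted p = 6.43e-07).

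The IFIT genes, whose products bind viral RNA caps and block its translation, lie close together on chromosome 10 and did not move together. IFIT1 had 6.76, 6.73 and 6.96 in HEL with ITF2357, against 5.98, 5.90 and 5.79 in untreated HEL. In UKE1 it had 6.61, 6.60 and 6.53 with ITF2357, against 7.47, 7.47 and 7.40 untreated. The groups did not overlap in either line, and the treated arrays of both lines lay between the untreated levels of HEL and UKE1. IFIT1 rose by 0.93 ± 0.073 in HEL (1.9-fold, adjusted p = 2.25e-07) and fell by 0.87 in UKE1 (SE 0.073, 1.82-fold, adjusted p = 3.64e-07). IFIT3, a partner that stabilises IFIT1, had 6.30, 6.51 and 6.25 in HEL with ITF2357, against 7.04, 6.78 and 6.56 untreated, and 5.70, 5.75 and 5.51 in UKE1 with ITF2357, against 7.36, 7.13 and 7.18 untreated. Treated arrays lay below untreated ones in both lines, by little in HEL and by more in UKE1. The falls were 0.44 in HEL (SE 0.115, adjusted p = 0.00651) and 1.57 in UKE1 (SE 0.115, 2.97-fold, adjusted p = 9.66e-08). IFIT5 fell in UKE1 by 0.48 (adjusted p = 0.000112) and had a change of -0.02 ± 0.075 in HEL, and IFIT2 was called in neither line (0.26 ± 0.107 in HEL, adjusted p = 0.0659, and -0.25 ± 0.107 in UKE1, adjusted p = 0.0792).

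**Figure D2:**
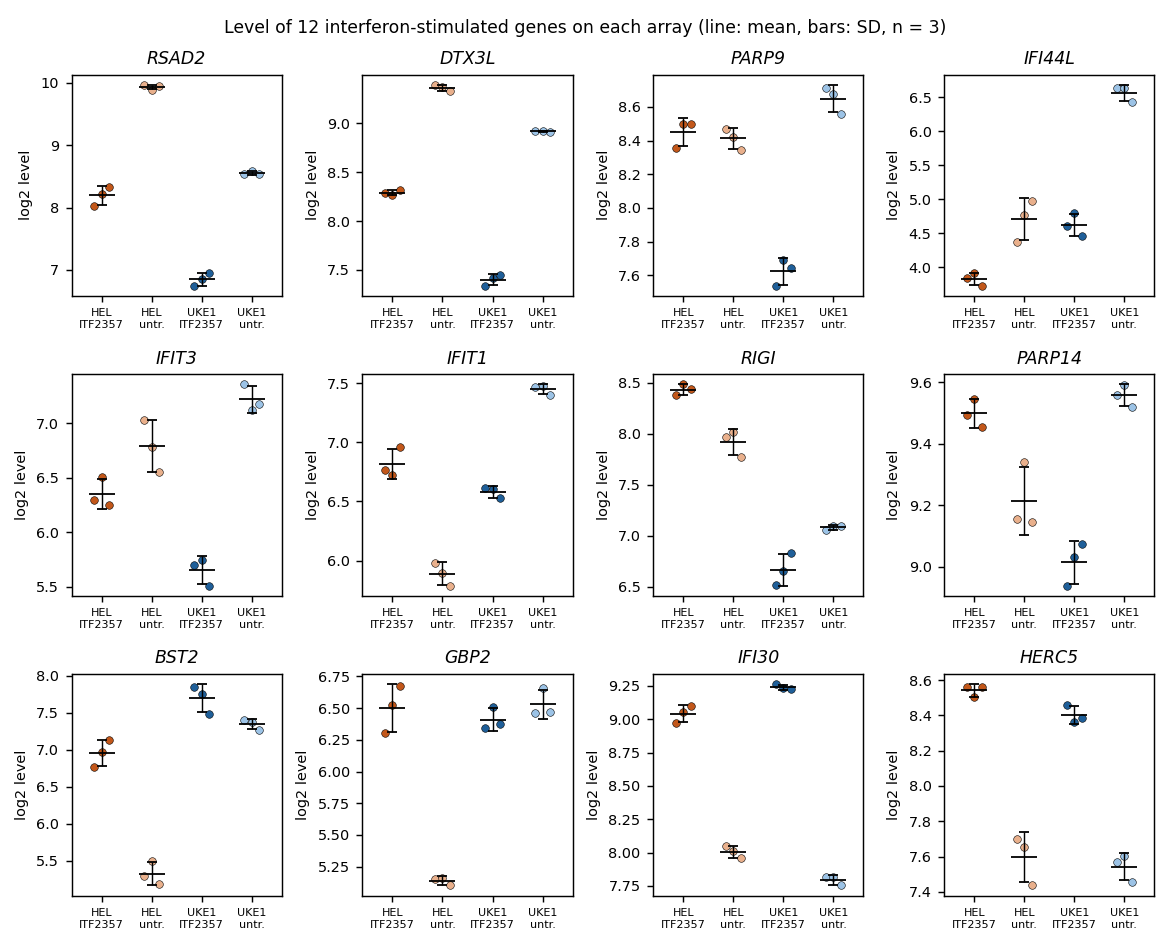
Log2 level on each array (y axis, a scale of its own in each panel) for 12 interferon-stimulated genes in HEL with ITF2357, untreated HEL, UKE1 with ITF2357 and untreated UKE1 (x axis). Points are arrays, long lines are means and bars are SD (n = 3). RSAD2 and DTX3L are lower with ITF2357 in both lines, IFI30 and HERC5 are higher in both, and IFIT1, RIGI and PARP14 are higher in HEL and lower in UKE1.

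The OAS enzymes, which make the 2′-5′ oligoadenylates that switch on RNase L, showed falls and no rise. OAS2 had 6.69, 6.78 and 7.14 in UKE1 with ITF2357, against 7.80, 7.65 and 7.74 untreated, and in HEL 5.01, 4.83 and 4.87 with ITF2357, against 4.90, 5.06 and 5.00 untreated. It was lower on all treated UKE1 arrays and overlapped in HEL. OAS2 fell by 0.86 in UKE1 (SE 0.101, 1.82-fold, adjusted p = 7.44e-06) and was not called in HEL (-0.08 ± 0.101, adjusted p = 0.574). OAS1 had a change of -0.26 ± 0.085 in UKE1 (adjusted p = 0.0247), which was not past the threshold without untreated UKE1 replicate 1 or 2 or treated UKE1 replicate 1 or 3 (adjusted p 0.0616 to 0.0778), and 0.08 ± 0.085 in HEL. OAS3 stood at -0.28 ± 0.083 in HEL (adjusted p = 0.0145) and -0.27 ± 0.083 in UKE1 (adjusted p = 0.0155). The HEL call ended without untreated HEL replicate 3 or treated HEL replicate 2 (adjusted p 0.0525 to 0.0723) and the UKE1 call without treated UKE1 replicate 1 (0.0732). OASL, which lacks the synthetic activity and aids RIGI, had -0.35 ± 0.110 in HEL (adjusted p = 0.0183), lost without untreated HEL replicate 1 or 2 or treated HEL replicate 1 (0.0505 to 0.0700), and -0.06 ± 0.110 in UKE1.

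The dynamin-like MX proteins, which trap viral capsids and nucleoproteins, fell in both lines. MX2 had 8.88, 8.98 and 8.95 in HEL with ITF2357, against 9.78, 9.77 and 9.70 untreated, and in UKE1 5.57, 5.45 and 5.48 with ITF2357, against 5.88, 6.10 and 6.09 untreated. The groups were apart in both lines, and every HEL array lay far above every UKE1 array. MX2 fell by 0.81 in HEL (SE 0.070, 1.75-fold, adjusted p = 4.83e-07) and by 0.52 in UKE1 (SE 0.070, 1.44-fold, adjusted p = 2.71e-05). MX1 fell by 0.29 in HEL (adjusted p = 0.00222) and by 0.32 in UKE1 (adjusted p = 0.00104).

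The guanylate-binding proteins, GTPases that attack vacuoles of intracellular pathogens and respond to interferon gamma, did not move together. GBP2 had 6.30, 6.52 and 6.67 in HEL with ITF2357, against 5.15, 5.16 and 5.10 untreated. In UKE1 it had 6.34, 6.51 and 6.38 with ITF2357, against 6.46, 6.66 and 6.47 untreated. Treated HEL arrays reached the range of the UKE1 arrays, and the UKE1 groups overlapped. GBP2 rose by 1.36 ± 0.091 in HEL (2.57-fold, adjusted p = 5.1e-08) and was not called in UKE1 (-0.12 ± 0.091, adjusted p = 0.333). A second row of GBP2 gave 1.55 in HEL and 0.07 in UKE1. GBP4 had 6.18, 6.38 and 6.27 in UKE1 with ITF2357, against 7.22, 7.39 and 7.05 untreated, and 9.10, 8.98 and 8.96 in HEL with ITF2357, against 9.33, 9.34 and 9.17 untreated. It fell by 0.94 in UKE1 (SE 0.089, 1.92-fold, adjusted p = 1.06e-06), clear of the untreated arrays. In HEL its change was -0.27 ± 0.089 (adjusted p = 0.0267), not past the threshold without untreated HEL replicate 1 or 2 or treated HEL replicate 2 or 3 (0.0767 to 0.0870). GBP3 fell by 0.68 in UKE1 (adjusted p = 0.000275) and had -0.23 ± 0.118 in HEL. The row shared by GBP1, GBP3 and the pseudogene GBP1P1, whose parts cannot be separated, rose by 0.95 in HEL (adjusted p = 1.30e-05) and fell by 0.79 in UKE1 (adjusted p = 6.57e-05) when rows of several symbols were also tested.

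In the ISG15 system, the ligase HERC5 and its neighbour HERC6 on chromosome 4 moved in opposite directions in both lines. HERC5, which attaches ISG15 to new proteins, had 8.56, 8.50 and 8.56 in HEL with ITF2357, against 7.70, 7.65 and 7.44 untreated, and in UKE1 8.46, 8.36 and 8.38 with ITF2357, against 7.57, 7.60 and 7.46 untreated. The treated arrays of both lines lay together above the untreated arrays of both lines. HERC5 rose by 0.94 ± 0.074 in HEL (1.92-fold, adjusted p = 2.06e-07) and by 0.86 ± 0.074 in UKE1 (1.82-fold, adjusted p = 4.19e-07). HERC6, a related ubiquitin ligase, had 6.56, 6.60 and 6.71 in HEL with ITF2357, against 7.47, 7.46 and 7.32 untreated, and 6.85, 6.76 and 6.69 in UKE1 with ITF2357, against 7.90, 7.96 and 7.79 untreated. It fell clear of the untreated arrays, by 0.80 in HEL (SE 0.073, 1.74-fold, adjusted p = 8.04e-07) and by 1.12 in UKE1 (SE 0.073, 2.17-fold, adjusted p = 3.28e-08). ISG15 itself was not called, with -0.03 ± 0.080 in HEL and 0.14 ± 0.080 in UKE1. USP18, which removes ISG15 and shuts off the interferon receptor, fell by 0.75 in UKE1 (adjusted p = 1.49e-05) and had 0.07 ± 0.094 in HEL. Its row shared with the pseudogene USP41P gave -0.88 in UKE1 (adjusted p = 2.33e-06) and 0.20 in HEL (0.0963).

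RSAD2 (viperin), which makes a chain-terminating nucleotide from CTP, was among the most firmly lowered members. It had 8.03, 8.21 and 8.34 in HEL with ITF2357, against 9.96, 9.89 and 9.94 untreated. In UKE1 it had 6.75, 6.86 and 6.95 with ITF2357, against 8.54, 8.59 and 8.54 untreated. In each line the groups lay far apart, and the treated HEL arrays were below the untreated UKE1 ones. RSAD2 fell by 1.74 in HEL (SE 0.079, 3.34-fold, adjusted p = 2.26e-09) and by 1.70 in UKE1 (SE 0.079, 3.26-fold, adjusted p = 1.91e-09). CMPK2, the neighbouring mitochondrial kinase that supplies nucleotides to this reaction, fell by 0.64 in HEL (1.56-fold, adjusted p = 3.62e-05) and by 0.95 in UKE1 (1.94-fold, adjusted p = 8.52e-07). The exonuclease ISG20 was not called (0.00 ± 0.079 in HEL and 0.20 ± 0.079 in UKE1, adjusted p = 0.0535).

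The membrane proteins included 2 of the 4 members that rose at least 2-fold in HEL. BST2 (tetherin), which holds budding virus at the cell surface, had 6.77, 6.97 and 7.13 in HEL with ITF2357, against 5.29, 5.50 and 5.19 untreated, and in UKE1 7.85, 7.75 and 7.49 with ITF2357, against 7.40, 7.38 and 7.27 untreated. The groups did not overlap in either line, and the treated HEL arrays stayed below all UKE1 arrays. BST2 rose by 1.63 ± 0.111 in HEL (3.09-fold, adjusted p = 5.87e-08). Its UKE1 change was 0.35 ± 0.111 (adjusted p = 0.0205), not past the threshold without untreated UKE1 replicate 3 or treated UKE1 replicate 1 or 2 (0.0673 to 0.0957). IFITM1, which stiffens membranes against viral fusion, had 9.65, 9.59 and 9.69 in HEL with ITF2357, against 9.49, 9.40 and 9.39 untreated, and 9.40, 9.46 and 9.40 in UKE1 with ITF2357, against 9.78, 9.89 and 9.83 untreated. Without overlap, it rose by 0.21 ± 0.059 in HEL (1.16-fold, adjusted p = 0.0087) and fell by 0.41 in UKE1 (SE 0.059, 1.33-fold, adjusted p = 4.51e-05). IFI6, a mitochondrial and endoplasmic reticulum protein with 3 ISRE cores in its window, rose by 1.05 ± 0.108 in HEL (2.06-fold, adjusted p = 2.5e-06) and had 0.37 ± 0.108 in UKE1 (adjusted p = 0.0113), lost without untreated UKE1 replicate 3 or treated UKE1 replicate 1 (0.0580 to 0.0631). IFI27 was not called (-0.06 ± 0.089 and 0.10 ± 0.089 in HEL and UKE1).

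IFI44L, a feedback regulator of the interferon response, had the largest fall of the 42 members in UKE1. Its levels in UKE1 were 4.60, 4.79 and 4.46 with ITF2357, against 6.65, 6.63 and 6.44 untreated, and in HEL 3.84, 3.91 and 3.73 with ITF2357, against 4.36, 4.77 and 4.98 untreated. Treated UKE1 arrays reached the range of the untreated HEL arrays. They also lay below the mean of CLEC4C in treated UKE1 (4.80), so they may be near background and the UKE1 fold may be understated. IFI44L fell by 1.95 in UKE1 (SE 0.132, 3.88-fold, adjusted p = 4.55e-08) and by 0.88 in HEL (SE 0.132, 1.84-fold, adjusted p = 7.79e-05). The neighbouring IFI44 fell by 0.73 in UKE1 (adjusted p = 8.54e-06) and had -0.12 ± 0.087 in HEL. Of the antiviral and growth-restraining SAMD9 pair on chromosome 7, SAMD9L rose by 0.75 in HEL (adjusted p = 0.000147) and by 0.60 in UKE1 (adjusted p = 0.000903). SAMD9 had 0.41 ± 0.115 in HEL (adjusted p = 0.0099), ended without untreated HEL replicate 3 or treated HEL replicate 2 (0.0525 to 0.0539), and -0.21 ± 0.115 in UKE1 (adjusted p = 0.169).

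DTX3L and PARP9 form a heterodimer that ubiquitinates and ADP-ribosylates. Their genes run away from each other, and the ISRE core printed above spans the DTX3L start and lies upstream of PARP9. Both genes fell in UKE1, while in HEL DTX3L alone was called. DTX3L had 8.29, 8.27 and 8.32 in HEL with ITF2357, against 9.39, 9.37 and 9.33 untreated, and in UKE1 7.34, 7.42 and 7.44 with ITF2357, against 8.92, 8.92 and 8.91 untreated. It fell by 1.07 in HEL (SE 0.054, 2.1-fold, adjusted p = 5.55e-09) and by 1.52 in UKE1 (SE 0.054, 2.86-fold, adjusted p = 3.38e-10). PARP9 had 8.36, 8.50 and 8.50 in HEL with ITF2357, against 8.47, 8.42 and 8.34 untreated, and 7.54, 7.69 and 7.64 in UKE1 with ITF2357, against 8.71, 8.68 and 8.56 untreated. The HEL groups of PARP9 overlapped, whereas its UKE1 groups and both pairs of DTX3L groups did not. PARP9 fell by 1.03 in UKE1 (SE 0.070, 2.04-fold, adjusted p = 5.05e-08) and was not called in HEL (0.04 ± 0.070, adjusted p = 0.708). PARP14, another ADP-ribosyltransferase, had 9.49, 9.55 and 9.45 in HEL with ITF2357, against 9.15, 9.34 and 9.14 untreated, and 8.94, 9.03 and 9.07 in UKE1 with ITF2357, against 9.56, 9.59 and 9.52 untreated. It rose by 0.29 ± 0.067 in HEL (1.22-fold, adjusted p = 0.00326) and fell by 0.54 in UKE1 (SE 0.067, 1.46-fold, adjusted p = 1.35e-05), without overlap in either line.

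IFI30, a lysosomal thiol reductase of antigen processing, rose in both lines. Its levels were 8.97, 9.05 and 9.10 in HEL with ITF2357, against 8.05, 8.01 and 7.96 untreated, and 9.26, 9.23 and 9.23 in UKE1 with ITF2357, against 7.81, 7.81 and 7.75 untreated. All 6 treated arrays lay above all 6 untreated ones. IFI30 rose by 1.03 ± 0.057 in HEL (2.05-fold, adjusted p = 1.05e-08) and by 1.45 ± 0.057 in UKE1 (2.73-fold, adjusted p = 6.08e-10). XAF1, which counteracts an inhibitor of apoptosis, fell by 1.21 in UKE1 (2.31-fold, adjusted p = 2.22e-07). In HEL it had -0.30 ± 0.097 (adjusted p = 0.0238), ended without untreated HEL replicate 1 or 2 or treated HEL replicate 1 or 3 (0.0635 to 0.119). IFI35 fell by 0.69 in UKE1 (adjusted p = 1.57e-05) and had 0.02 ± 0.087 in HEL. EPSTI1 had 6.71, 6.65 and 6.70 in HEL with ITF2357, against 6.84, 6.50 and 6.50 untreated, and 3.91, 4.00 and 3.92 in UKE1 with ITF2357, against 3.78, 4.12 and 4.00 untreated. Its groups overlapped in both lines (0.07 ± 0.099 in HEL, adjusted p = 0.62, and -0.02 ± 0.099 in UKE1, adjusted p = 0.885).

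Whether the lines responded differently was tested as the UKE1 response minus the HEL response. Of the 42 members, 24 had a lower response in UKE1, 1 a higher one (IFI30) and 17 were not called, where 13.8% of all genes were lower and 10.1% higher. The members' median difference was -0.42 log2, against 0.01 over all genes. Of the called genes of the whole table, 42.2% were higher, and this share was 30.6% after centring each array on its median and 49.9% after quantile normalization. The 6 members whose response differed at least 2-fold were IFIT1 (-1.79 ± 0.104, 3.47-fold, adjusted p = 1.47e-07), GBP2 (-1.48 ± 0.128, 2.79-fold, adjusted p = 3.27e-06), BST2 (-1.28 ± 0.157, 2.43-fold, adjusted p = 6.02e-05), IFIT3 (-1.13 ± 0.162, 2.19-fold, adjusted p = 0.000221), IFI44L (-1.07 ± 0.186, 2.1-fold, adjusted p = 0.000906) and PARP9 (-1.07 ± 0.099, 2.09-fold, adjusted p = 5.73e-06). They reached it by different routes. IFIT1 rose in HEL and fell in UKE1, GBP2 rose in HEL, BST2 rose more in HEL, IFIT3 and IFI44L fell more in UKE1, and PARP9 fell in UKE1 without a call in HEL. The HEL levels of IFI44L, and of OAS2 among the other called members, were low on all HEL arrays and may be near background. This could limit their changes in HEL and was not tested.

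The 4 members with opposite calls in the lines all differed, RIGI by -0.93 ± 0.117 (adjusted p = 7.36e-05), PARP14 by -0.83 ± 0.095 (adjusted p = 3.77e-05) and IFITM1 by -0.63 ± 0.083 (adjusted p = 0.000112) besides IFIT1. Of the 8 members that fell in UKE1 without a call in HEL, 6 differed (IFIT5, OAS2, USP18, IFI44, PARP9 and IFI35), and OAS1 (adjusted p = 0.0572) and GBP3 (0.0652) did not pass. All 4 IFIT genes responded lower in UKE1, where 13.8% of all genes were lower and 10.1% higher. Classes by drug call rest on the same changes that make up this difference, so their counts only describe the members. Such classes were not counted over all genes. Of the 20 members that moved the same way in both lines, 11 differed and 9 were not called. Those not called were RSAD2 (0.04 ± 0.111, adjusted p = 0.863), HERC5 (-0.08 ± 0.105, 0.621), MX1 (-0.03 ± 0.092, 0.868), IRF1 (-0.09 ± 0.094, 0.559), OAS3 (0.01 ± 0.117, 0.983), SAMD9L (-0.15 ± 0.171, 0.583), DDX60 (-0.29 ± 0.130, 0.136), CMPK2 (-0.31 ± 0.125, 0.0918) and MX2 (0.29 ± 0.099, 0.0507). IFI30, the 1 member with a higher response in UKE1, differed by 0.41 ± 0.081 (adjusted p = 0.00212). The calls of 5 members ended when 1 array was left out. These were IRF9 (any of 9 arrays, adjusted p 0.0510 to 0.0717), IFI16 (7 arrays, 0.0566 to 0.0932), IFIH1 (7 arrays, 0.0537 to 0.0776), HERC6 (7 arrays, 0.0520 to 0.0887) and IFIT2 (6 arrays, 0.0516 to 0.0678). Quantile normalization also ended the calls of IRF9 (0.0826), IFIH1 (0.0707) and HERC6 (0.0741).

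Before treatment the lines held the same genes at different levels. Untreated UKE1 was higher than untreated HEL for 17 of 42 members and lower for 19, and 6 were not called, where 33.3% of all genes were higher and 34.4% lower. The log2 difference of untreated UKE1 from untreated HEL was -3.73 ± 0.070 for MX2 (13.2-fold lower, adjusted p = 9.68e-15), -2.65 ± 0.099 for EPSTI1 (adjusted p = 1.38e-11) and -2.06 ± 0.089 for GBP4 (4.18-fold lower, adjusted p = 7.36e-11). OAS2 was higher in untreated UKE1 by 2.74 ± 0.101 (6.7-fold, adjusted p = 1.15e-11), BST2 by 2.02 ± 0.111 (4.06-fold, adjusted p = 9.46e-10) and IFI44L by 1.87 ± 0.132 (3.64-fold, adjusted p = 1.58e-08). EPSTI1 on the untreated UKE1 arrays (3.78 to 4.12) lay at the level of the B-cell marker MS4A1 (4.08 in UKE1 and 3.93 in HEL), which may be background, so no fold is given for it. OAS2 and IFI44L in untreated HEL (4.90 to 5.06 and 4.36 to 4.98) were near the level of CLEC4C, and their folds may likewise be understated. BST2 and GBP2 in untreated HEL lay near HBE1 in untreated UKE1 (5.19). Whether that level is above background was not tested, and folds taken from it, with ITF2357 in HEL as well, may be understated. The neighbours OAS1 (1.47) and OAS3 (1.48) were higher in UKE1 as well, whereas the neighbours MX2 and MX1 (-0.65) were lower. The untreated calls of IFI6 and IFIH1 ended when 1 array was left out, for IFI6 untreated HEL replicate 2 or 3 or untreated UKE1 replicate 3 (0.0594 to 0.115), and for IFIH1 any of 7 arrays (0.0503 to 0.192). The lineage markers given above also differed between the untreated lines, 9 of 29 higher and 13 of 29 lower in UKE1, and their part in these gaps was not tested.

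With ITF2357 the balance between the lines was different. Treated UKE1 was higher than treated HEL for 10 members and lower for 23, and 9 were not called, where 34% of all genes were higher and 34% lower. The members' median line difference was -0.30 log2 with ITF2357 and -0.05 untreated, against 0.02 and -0.00 over all genes. The gap turned for 5 members, which UKE1 held higher untreated and lower with ITF2357: IFIT1 (treated difference -0.23 ± 0.073, untreated 1.56 ± 0.073), IFIT3 (-0.70 ± 0.115 and 0.43 ± 0.115), IFITM1 (-0.22 ± 0.059 and 0.41 ± 0.059), PARP9 (-0.83 ± 0.070 and 0.24 ± 0.070) and PARP14 (-0.48 ± 0.067 and 0.34 ± 0.067). IFI30 turned the other way (0.20 ± 0.057 treated and -0.21 ± 0.057 untreated). The treated call of IFIT1 ended without treated HEL replicate 3 (adjusted p = 0.0588) and that of IFITM1 under quantile normalization (0.112). The gap closed to no call for GBP2 (-0.09 ± 0.091 treated, adjusted p = 0.398, and 1.39 ± 0.091 untreated), though the mean of its rows gave -0.49 treated (adjusted p = 0.000136). For IRF9 (-0.02 ± 0.067), HERC6 (0.15 ± 0.073) and IFI35 (0.07 ± 0.087) the treated lines were likewise not called apart. Quantile normalization gave a treated call for HERC6 (0.0278). IFIH1 was not called when treated (-0.19 ± 0.088), but its sign differed from the untreated difference (0.22). With the replicate number as a block (0.0270) or a fit to the treated arrays alone (0.0339), treated IFIH1 was called lower in UKE1. For OASL the treated call (0.34 ± 0.110) ended without treated UKE1 replicate 3 (0.0633). MX2, EPSTI1, GBP4 and OAS2 kept gaps of -3.44, -2.74, -2.74 and 1.96. Drug and line contrasts share arrays, so they are set side by side here and are not independent.

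**Figure D3:**
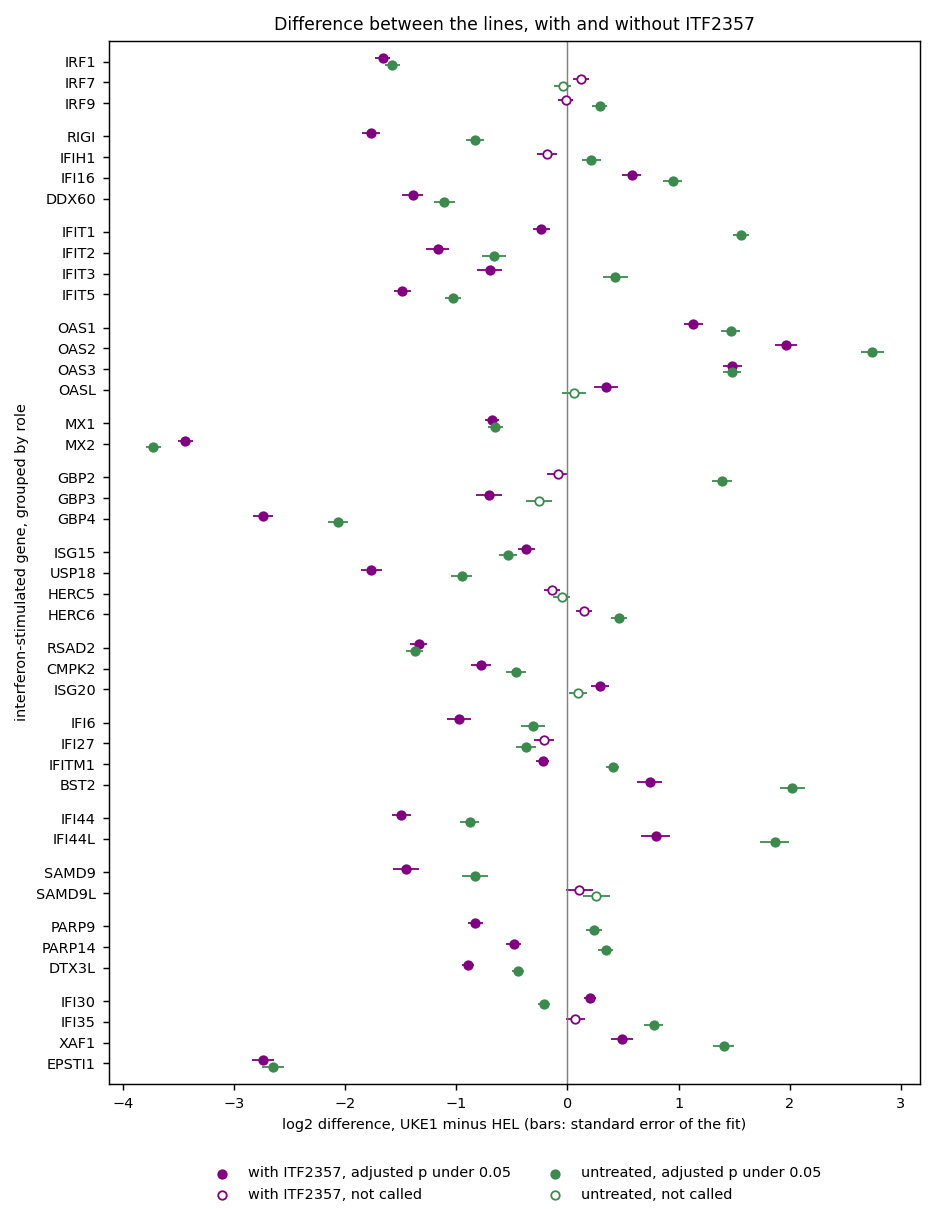
Log2 difference between UKE1 and HEL (x axis) for the 42 genes ordered by role (y axis), with ITF2357 (purple) and untreated (green). Points are fitted differences from 3 arrays a group, bars are standard errors, and filled points have an adjusted p under 0.05. The purple points of IFIT1, IFIT3, IFITM1, PARP9 and PARP14 lie left of 0 and their green points right of it.

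Genes of this set that lie next to each other on a chromosome did not always move together. Both members of CMPK2 with RSAD2 and of MX2 with MX1 fell in both lines, and SAMD9 and SAMD9L both rose in HEL. HERC6 fell and HERC5 rose in both lines. IFIT1 rose in HEL without a call for its neighbour IFIT5, and both fell in UKE1. IFIT3 fell in both lines without a call for its neighbour IFIT2. DTX3L and PARP9, whose windows share 137 bases, both fell in UKE1, and in HEL DTX3L fell without a call for PARP9. By promoter, of 24 measured members with the core, 8 rose, 8 fell and 8 were not called in HEL, and 3 rose, 15 fell and 6 were not called in UKE1. Of 11 with a window and no core, 4 rose, 5 fell and 2 were not called in HEL, and 3 rose, 8 fell and 0 were not called in UKE1. The median UKE1 change was -0.45 with the core and -0.60 without it, and in HEL -0.03 and 0.02. The 2 sets were not compared by a test, and of all genes 22.6% rose and 19.9% fell in HEL and 22% rose and 22.3% fell in UKE1.

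The rest of the interferon pathway was read from 8 lists of 130 genes, of which 114 were measured. Over these 114 genes, 35 rose and 16 fell in HEL and 28 rose and 38 fell in UKE1, with median changes of 0.06 and -0.04. In HEL 30.7% rose and 14.04% fell, against 22.6% and 19.9% of all genes, and in UKE1 24.6% rose and 33.3% fell, against 22% and 22.3%. Of 16 measured ligands (21 listed), 0 rose and 0 fell in HEL in limma's adjusted test, and 2 had an unadjusted p under 0.05. In UKE1 IFNK had 0.34 ± 0.115 (adjusted p = 0.0267) and IFNA6 -0.27 ± 0.078 (adjusted p = 0.0114). Levels of the 13 ligands other than the interferon lambda genes were 2.19 to 4.93 log2 over the 12 arrays. With no detection flag, such low rows may not be above background, and a missing call does not show that a gene did not move. Without untreated UKE1 replicate 3 or treated UKE1 replicate 1 neither was past the threshold (0.0518 to 0.0639 for IFNA6, 0.0705 to 0.129 for IFNK, which also needed treated UKE1 replicate 3). Of 6 receptor chains, 4 rose in HEL, 3 rose in UKE1 and none fell. IFNGR1, the ligand-binding chain for interferon gamma, rose by 1.24 ± 0.081 in HEL (2.35-fold, adjusted p = 4.24e-08) and by 0.91 ± 0.081 in UKE1 (1.88-fold, adjusted p = 5.37e-07). IFNAR2 rose by 0.60 and 0.64, and IL10RB, a chain of the interferon lambda receptor, by 0.64 and 0.70, in HEL and UKE1. IFNAR1 had 0.21 ± 0.073 in HEL (adjusted p = 0.031) and -0.04 ± 0.073 in UKE1, and IFNGR2 was called in neither line (0.12 and -0.13). The HEL call of IFNAR1 ended in a fit to the HEL arrays alone and without untreated HEL replicate 3 or treated HEL replicate 1 or 2 (0.0752 to 0.137).

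Of 4 measured kinases and STATs (6 listed), 2 rose in HEL, and 2 rose and 1 fell in UKE1. Over all genes, 22.6% rose and 19.9% fell in HEL, and 22% rose and 22.3% fell in UKE1. JAK1, the kinase common to all interferon receptors, rose by 0.30 in HEL and 0.66 in UKE1. JAK2, which carries the mutation, had 0.10 ± 0.069 in HEL and fell by 0.57 in UKE1 (SE 0.069, adjusted p = 1.14e-05). STAT3 rose by 0.64 in UKE1 and had 0.06 ± 0.057 in HEL, and TYK2 had 0.17 ± 0.063 in HEL (adjusted p = 0.0406), a call lost when any of 8 arrays was left out (0.05002 to 0.139), and 0.10 ± 0.063 in UKE1. Among 5 other IRFs (6 listed), 2 rose in HEL, and 2 rose and 1 fell in UKE1: IRF2, a repressor at ISRE sites, rose in both (0.56 and 0.33), IRF3 rose in HEL (0.37, and 0.03 in UKE1), IRF4 rose in UKE1 (1.28, and -0.27 in HEL, not called) and IRF5 fell in UKE1 (-1.03, and -0.01 in HEL).

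Sensing genes and adaptors (17 measured) gave 3 rises and 4 falls in HEL (17.6% and 23.5%). In UKE1 they gave 1 rise and 5 falls (5.9% and 29.4%). The shares over all genes were 22.6% and 19.9% in HEL, and 22% and 22.3% in UKE1. CGAS, which senses cytosolic DNA, fell by 0.88 in HEL (SE 0.060, adjusted p = 5.87e-08) and by 1.46 in UKE1 (SE 0.060, 2.74-fold, adjusted p = 8.33e-10). The adaptor TRAF3 fell in both lines (-0.54 and -0.72), the kinase IKBKE rose in HEL (0.75, and -0.05 in UKE1), and the adaptor MYD88 had -0.19 in HEL and -0.78 in UKE1, with the HEL call lost without 4 of the arrays (untreated HEL replicates 1 and 3, treated HEL replicates 1 and 2), under median centring and in a fit to the HEL arrays alone (0.0677 to 0.114). Of 11 feedback inhibitors, 4 rose (36.4%) and 4 fell (36.4%) in HEL, and 4 rose (36.4%) and 5 fell (45.5%) in UKE1. The phosphatase PTPN1 rose in both (0.72 and 0.79), and the phosphatase PTPN2 (-0.86 and -0.50) and IRF2BP2 (-0.69 and -0.43), a partner of IRF2 in repression, fell in both.

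A further 45 interferon-stimulated genes that are not members (48 listed) rose in 16 cases (35.6%) and fell in 5 (11.1%) in HEL, and rose in 10 (22.2%) and fell in 21 (46.7%) in UKE1. Over all genes, 22.6% rose and 19.9% fell in HEL, and 22% rose and 22.3% fell in UKE1. The UKE1 rises are at the share over all genes. SAMHD1, which depletes the nucleotides that viruses need, rose by 1.63 ± 0.073 in HEL (3.1-fold, adjusted p = 2.24e-09) and by 2.52 ± 0.073 in UKE1 (5.73-fold, adjusted p = 6.76e-11). SLFN5, of the Schlafen family, rose by 1.12 and 2.00, and GBP5 by 1.33 and 1.05, while NMI, which binds STATs and the product of the member IFI35, fell by 1.04 and 1.61, in HEL and UKE1. In antigen presentation 4 of 10 measured genes (15 listed) rose and 3 fell in HEL, and 5 rose and 4 fell in UKE1. The 3 immunoproteasome subunits divided: PSMB9 rose in both (0.70 and 0.61), PSMB10 fell in both (-0.51 and -1.09), and PSMB8 had -0.23 in HEL (adjusted p = 0.0297) and fell in UKE1 (-0.55). Leaving out untreated HEL replicate 1 or 3 or any treated HEL array, or centring on medians, ended the HEL call of PSMB8 (0.0579 to 0.120). The transporter TAP1 rose by 0.51 in HEL and 0.19 in UKE1. The plot of called shares by list sets these counts beside all genes.

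**Figure D4:**
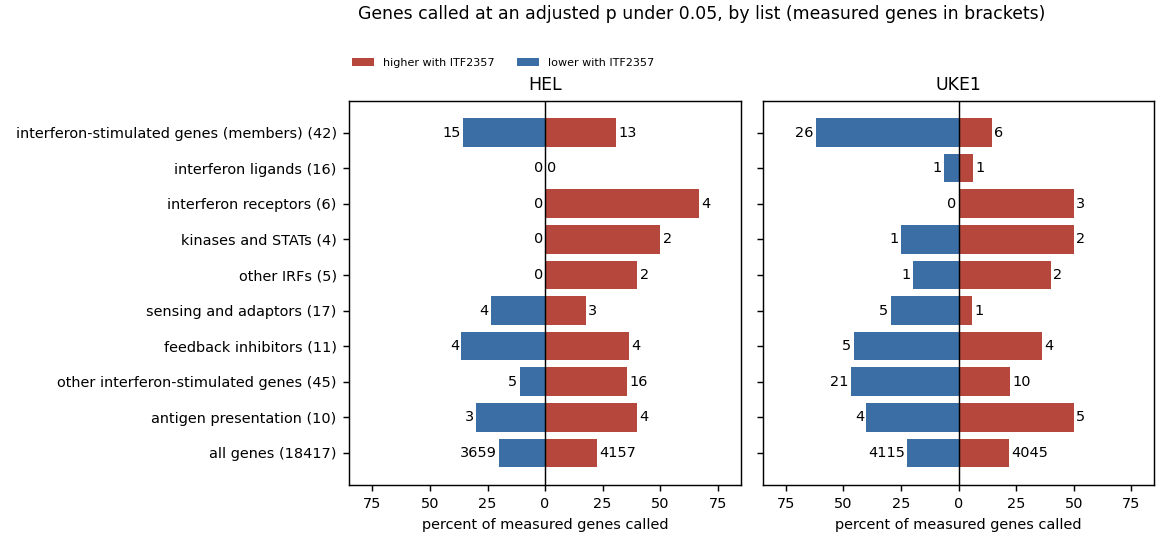
Percent of the measured genes of each list (y axis, number measured in brackets) that were called higher (red, right of 0) or lower (blue, left of 0) with ITF2357 at an adjusted p under 0.05, in HEL and in UKE1. Numbers at the bars are genes called, and the lowest bar is all 18417 genes. In UKE1 26 of 42 members are called lower and 6 higher, and in HEL 15 lower and 13 higher.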

How the data were processed

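Total RNA of 12 samples was hybridised to Affymetrix Gene 1.0 ST arrays. The authors' tools were Affymetrix Expression Console and RMA, per the submitters' processing notes (versions: not given in the sources used here). No label states a log base. The deposited values run between 1.26 and 14.36 and were taken as log2, and array medians of 6.41 to 6.50 were taken to mean joint normalization. No detection flag is given, and precision is limited by the number of arrays. GEO's platform annotation named 1 gene for 19460 of 33297 rows, several for 1754 and none for 12083. For 769 genes with several rows the row with the highest mean was kept, leaving 18417 genes. Gene IDs of 19429 rows matched RefSeq (GRCh38.p14), with 0 symbols changed.

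With limma 3.58.1 under R 4.3.3 (lmFit, then eBayes), the 4 group means were fitted over all 12 arrays, with 8 residual degrees of freedom, two-sided tests and Benjamini-Hochberg adjustment over the 18417 genes at 0.05. In 5 contrasts, ITF2357 was compared with no treatment in each line, the UKE1 response with the HEL response, and UKE1 with HEL under each treatment. Errors of differences are standard errors of the fit.

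The members, gene lists, markers and tests were chosen with earlier results of these data known. Levels on each array are given for the 8 members with the smallest adjusted p in each drug contrast, the 4 for the response difference, the 6 with the largest gap between untreated lines and those that moved in opposite directions. Of each pathway list, up to 3 genes with the smallest adjusted p per drug contrast were named, besides IFNAR1, IFNAR2, IFNGR1, IFNGR2, JAK1 and TYK2. Some listed genes are not reported here. Markers and other members were named by role. Alternatives were another normalization, centring, a low-value filter, moderation, separate fits, row choice, a replicate block and each array left out.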

Additional observations from a re-analysis of the deposited data

Results flagged for a closer look

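The response to ITF2357 differed between the lines, by limma's test of the UKE1 response minus the HEL response (adjusted p under 0.05 over all 18417 genes), for 25 members. With 1 exception the response was lower in UKE1. By the same test 13.8% of all genes responded lower in UKE1 and 10.1% higher. Among factors and sensors the log2 differences were -0.31 for IRF9, -0.93 for RIGI, -0.40 for IFIH1 and -0.37 for IFI16. The IFIT genes gave -1.79 for IFIT1, -0.51 for IFIT2, -1.13 for IFIT3 and -0.46 for IFIT5. OAS2 gave -0.78, GBP2 -1.48 and GBP4 -0.67. In the ISG15 system USP18 gave -0.82 and HERC6 -0.32. Membrane proteins gave -0.67 for IFI6, -0.63 for IFITM1 and -1.28 for BST2. IFI44 gave -0.62, IFI44L -1.07 and SAMD9 -0.62. The HEL levels of OAS2 and IFI44L, and the treated UKE1 levels of IFI44L, may be near background. The PARP group gave -1.07 for PARP9, -0.83 for PARP14 and -0.44 for DTX3L, and IFI35 gave -0.70 and XAF1 -0.91. The exception was IFI30, at 0.41. Groups of 3 arrays are too small for the test of single arrays far from the others.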

How the results depend on the processing

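No called member turned direction under the alternatives run, each array left out included. A filter at the median gene level kept 25 of the 42 members, and with fewer members tested the called counts were 23 between untreated lines (10 higher in UKE1) and 20 between treated lines (4 higher), against 36 (17) and 33 (10) for all 42. Members with a higher response in UKE1 numbered 2 instead of 1 under that filter, with trend and robust moderation and with rows of several symbols tested, and 1 to 2 with 1 array left out, because MX2 joined IFI30. All other counts stayed within 1.5 times. With 1 array left out, members called numbered 25 to 29 in HEL, 28 to 33 in UKE1, 20 to 27 for the response difference, 35 to 36 between untreated and 32 to 34 between treated lines. Signs turned for 8 values that were called neither before nor after. Quantile normalization gave -0.0015 for PARP9 in HEL, 0.021 for HERC5 in the response difference and 0.061 for IRF9 between treated lines, and median centring gave -0.022 for RSAD2 in the response difference. With 1 array left out, the response difference of RSAD2 was -0.046 (without treated HEL replicate 1) to 0.11, also turning without treated UKE1 replicate 3 (-0.015), EPSTI1 in UKE1 was -0.12 to 0.055 (without untreated UKE1 replicate 2), and IRF9 between treated lines was -0.041 to 0.019 (without treated HEL replicate 3). The cause of these turns was not tested. Deviations of same-numbered samples of a line from their group means were little correlated (-0.09 to 0.06, 0 of 6 over 0.1). With 3 arrays a group, this cannot show whether same-numbered samples were prepared together. A fit with the replicate number as a block kept all 28, 32, 25, 36 and 33 member calls of the 5 contrasts, added IFIT2 in both drug contrasts (29 and 33 called), SAMD9L between untreated lines (37), and IFIH1 and IFI27 between treated lines (35), and left TYK2 in HEL at 0.0511. A separate fit gave no value of its own for the response difference, which already uses all groups.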
